A study of Mus musculus with 16 samples.

Results

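The genes described here are 10 genes of reactive astrocytes, namely *Gfap*, *Vim*, *Nes*, *Serpina3n*, *Lcn2*, *Osmr*, *Steap4*, *S1pr3*, *Cd44* and *Stat3*. They were chosen by name, and each was read from the probe that carries its RefSeq accession and has the highest mean signal, so that they are 10 of the 20134 genes with a value on all arrays. The RNA came from the right neocortex rostral from bregma of C57BL/6J mice, opposite to a left cortical hemisuction (suction of the left cortex including the sensorimotor area). In the neonatal brain hemisuction (NBH) groups the surgery was made at postnatal day 7 (P7), and the cortex was taken after 1 week (age P14) or 4 weeks (age P35). In the adult brain hemisuction (ABH) groups it was made in adult mice, and the cortex was taken after 1 week (age 11 weeks) or 4 weeks (age 15 weeks). The methods give a larger aspirated area for the adult surgery than for the neonatal one. Age at surgery and size of the aspirated area therefore cannot be told apart between NBH and ABH. Control mice without lesion were aged P7, P14, P35 and 10 weeks. Each of these 8 groups was 1 pool of RNA from several mice, described as male in the methods, from which a Cy3 and a Cy5 sample were made, each for 1 array (16 arrays).

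Astrocytes that respond to injury or inflammation are called reactive. They enlarge their cytoskeleton of intermediate filaments, of which glial fibrillary acidic protein (GFAP) is the best known, and secrete protease inhibitors and acute phase proteins. A main route to this state is the family of cytokines that signal through the receptor chain gp130 to the transcription factor STAT3. Several of the genes are not restricted to astrocytes, since vimentin, CD44 and lipocalin 2 are also made by immune, vascular or connective tissue cells.

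Every level below is a log2 intensity relative to the 75th percentile of its own array, given as the mean of the Cy3 and the Cy5 array ± their SD (n = 2 arrays of 1 pool). The SD is a technical error of the labeling and the array, no difference between groups has a biological replicate, and no p-value can be given. Levels are compared between pools within a gene and not between genes, since each probe has its own brightness. The 9 genes other than *Steap4* were well above background on all 16 arrays, and none of the 10 was saturated. Per array, the median spot had an intensity of 192.5 to 253 before background correction, where the surrounding background was 59 to 72. Of the spots, 60.2% to 72.2% were well above background. On both chips the controls occupied row 1 and the surgery pools row 2, so surgery and chip position cannot be told apart. *Xist*, the RNA of the inactive X chromosome of female cells, passed the background limit with both dyes in the P35 control alone, at −1.52 ± 0.14 and −2.80 ± 0.12 at its 2 probes. The changes in NBH 4 weeks were therefore also taken against the 10 weeks control. This control was older than the NBH 4 weeks pool (P35), so age and surgery cannot be told apart in those values. In bulk tissue, a change in the number of astrocytes and a change in RNA per cell cannot be told apart.

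The promoters of the 10 genes were read because a STAT3 target often carries a STAT binding sequence. RefSeq (GRCm38.p6) gave 1 promoter for each of the 10 genes, as a window of 250 bases before to 50 bases after the start of transcription. The motif TTCCNGGAA and the looser TTCNNNGAA, which includes the first, read the same on both strands. Either motif was found in the same 2 genes, *Gfap* and *Steap4*, against 1.15% of all 32851 promoters for the first motif and 8.3% for the looser one. These 2 windows are shown with the motif in capitals, on the transcribed strand from 5′ to 3′, followed by those of *Vim* and *Serpina3n*, which had the next largest changes after *Gfap* and hold no match. The *Gfap* window lies on the minus strand at chr11:102897151-102897450, and the others lie on the plus strand at chr5:7960222-7960521 (*Steap4*), chr2:13574061-13574360 (*Vim*) and chr12:104406458-104406757 (*Serpina3n*).
Gfap: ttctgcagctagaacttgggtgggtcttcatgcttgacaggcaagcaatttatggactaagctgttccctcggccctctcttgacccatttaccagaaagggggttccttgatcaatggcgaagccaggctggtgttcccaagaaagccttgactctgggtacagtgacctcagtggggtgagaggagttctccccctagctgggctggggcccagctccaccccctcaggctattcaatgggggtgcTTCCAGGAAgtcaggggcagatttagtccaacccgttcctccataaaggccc
Steap4: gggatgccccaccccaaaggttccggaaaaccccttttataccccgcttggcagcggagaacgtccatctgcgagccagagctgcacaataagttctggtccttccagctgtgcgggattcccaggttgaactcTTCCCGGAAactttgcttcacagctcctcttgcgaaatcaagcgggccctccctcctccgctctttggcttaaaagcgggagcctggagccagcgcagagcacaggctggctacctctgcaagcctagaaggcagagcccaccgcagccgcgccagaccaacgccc
Vim: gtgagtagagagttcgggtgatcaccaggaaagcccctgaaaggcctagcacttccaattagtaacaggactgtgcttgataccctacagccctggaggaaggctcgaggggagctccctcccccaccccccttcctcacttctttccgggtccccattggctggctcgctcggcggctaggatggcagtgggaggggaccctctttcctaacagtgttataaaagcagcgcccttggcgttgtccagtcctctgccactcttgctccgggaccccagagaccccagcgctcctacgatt
Serpina3n: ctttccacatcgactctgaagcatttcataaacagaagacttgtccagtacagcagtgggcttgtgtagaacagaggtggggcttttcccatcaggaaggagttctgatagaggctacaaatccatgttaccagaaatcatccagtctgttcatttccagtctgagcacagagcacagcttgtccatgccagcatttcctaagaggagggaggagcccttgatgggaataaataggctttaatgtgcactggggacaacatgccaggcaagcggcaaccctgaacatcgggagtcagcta
With the start of transcription as position 0, the *Gfap* match begins at −2 and reads TTCCAGGAA, and the *Steap4* match begins at −116 and reads TTCCCGGAA. A match is a description of these letters, and no match says only that they are not in this window.

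The largest changes of the reactive astrocyte genes, those of *Gfap*, *Serpina3n*, *Vim* and *Osmr*, were in ABH 1 week. The call "higher" stands for a ratio to the control of 1.5 or more with each dye (0.585 on the log2 scale), and "lower" for 0.75 or less with each dye. In ABH 1 week 5 of the 9 compared genes were called higher, *Gfap*, *Vim*, *Serpina3n*, *Osmr* and *Lcn2*, and none lower, where 4.5% of all 16320 compared genes were called higher and 6.34% lower. In ABH 4 weeks *Gfap* was the 1 gene called higher, against a background of 0.448% higher and 0.184% lower. In NBH 1 week *Lcn2* was called higher, against 0.472% higher and 0.427% lower, and in NBH 4 weeks *Cd44* was called higher, against 0.214% higher and 0.762% lower. No gene of the 10 was called lower in these 4 comparisons. The 9 genes had a median change of 0.77 in ABH 1 week, where that of all compared genes was −0.07. Their medians after the neonatal surgery were 0.13 at 1 week and 0.10 at 4 weeks, where all genes had 0.06 and 0.04, and ABH 4 weeks gave 0.14, where all genes had 0.07. Both ABH comparisons share the 10 weeks control.

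**Figure D1:**
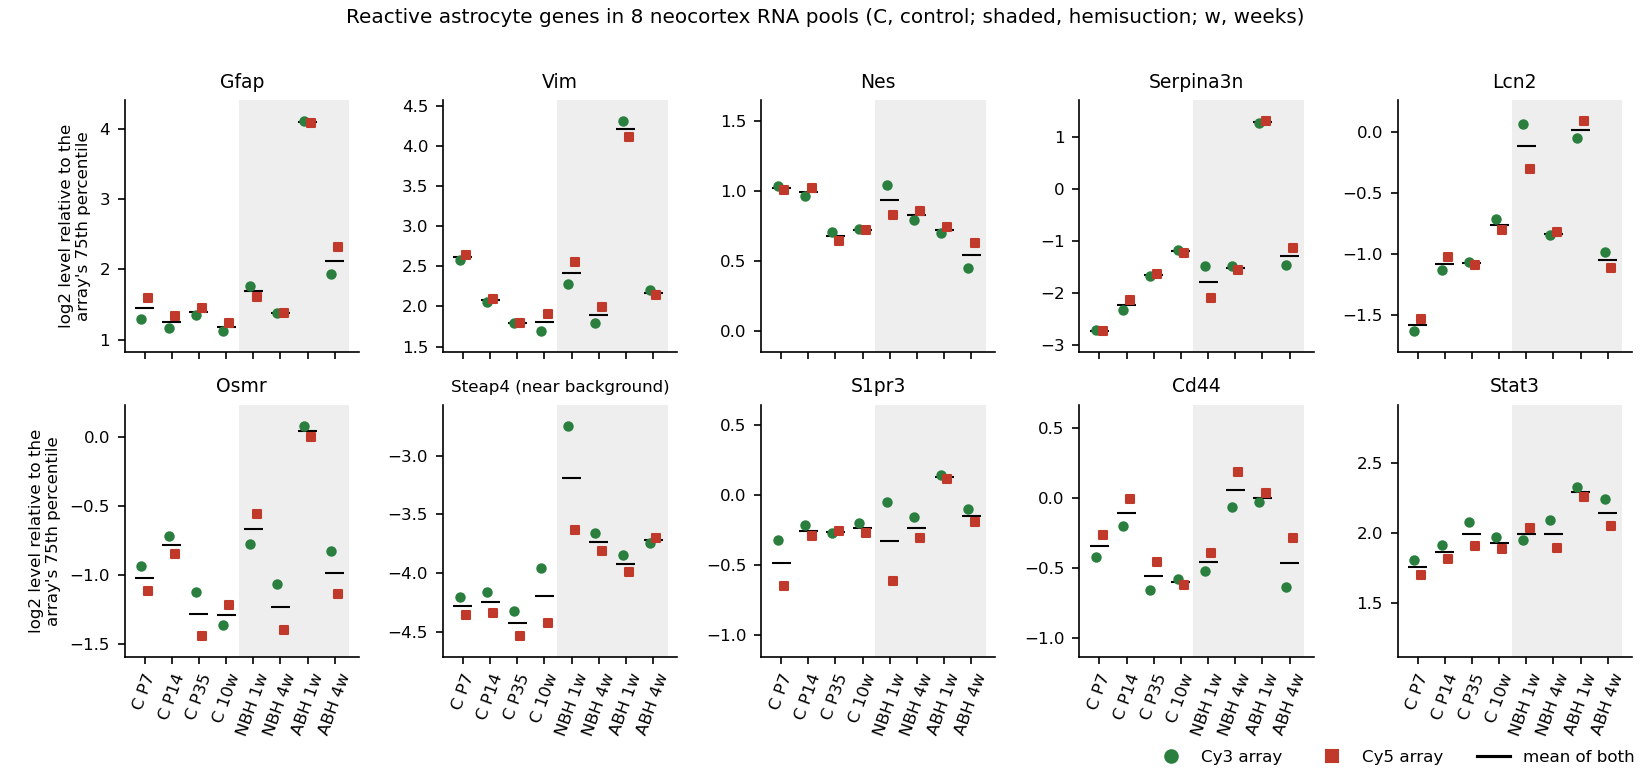
Log2 level (relative to the 75th percentile of the array) of the 10 genes in the 8 pools, with 1 panel per gene and its own scale. Circles are Cy3 arrays, squares are Cy5 arrays, and lines are their means. For 7 of the 9 measured genes the highest mean is in ABH 1 week, whereas *Nes* is highest in control P7 and *Cd44* in NBH 4 weeks.

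Among the genes of intermediate filaments, *Gfap* (NM_001131020), which encodes the filament protein used to mark astrocytes, had the largest change. Its level in the controls was 1.44 ± 0.21 at P7, 1.25 ± 0.12 at P14, 1.40 ± 0.07 at P35 and 1.18 ± 0.08 at 10 weeks. It was 1.69 ± 0.11 in NBH 1 week and 1.37 ± 0.0015 in NBH 4 weeks, and 4.10 ± 0.02 in ABH 1 week and 2.12 ± 0.27 in ABH 4 weeks. Both ABH pools thus stood above all other pools with both dyes, while the 4 controls and NBH 4 weeks lay between 1.18 and 1.44. In raw intensity, ABH 1 week gave 23410 (Cy3) and 24780 (Cy5), and the 10 weeks control 2658 and 3374. *Gfap* was 7.60-fold higher in ABH 1 week (log2 change 2.99 with Cy3 and 2.86 with Cy5), which placed it 24th from the top of the 16320 compared genes. In ABH 4 weeks it was 1.93-fold higher (0.81 and 1.08), at rank 30 of 16294. After the neonatal surgery the change was 0.60 with Cy3 and 0.27 with Cy5 at 1 week, which passed the limit with Cy3 alone, and 0.02 and −0.07 at 4 weeks (mean 0.20 against the 10 weeks control).

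The arrays carry 3 probes for *Gfap*, and all 3 were called higher in ABH 1 week. They are named by their accessions, and which transcript each one reads was not checked. The second probe of the same accession gave 5.61-fold in ABH 1 week and 2.06-fold in ABH 4 weeks, both called. The probe for NM_010277 gave 9.65-fold in ABH 1 week, whereas in ABH 4 weeks its changes were 0.12 with Cy3 and 1.72 with Cy5, so it was not called there. The 3 probes had mean changes of 0.44, 0.38 and 0.26 in NBH 1 week, and −0.02, 0.02 and −0.17 in NBH 4 weeks, none of them called.

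**Figure D2:**
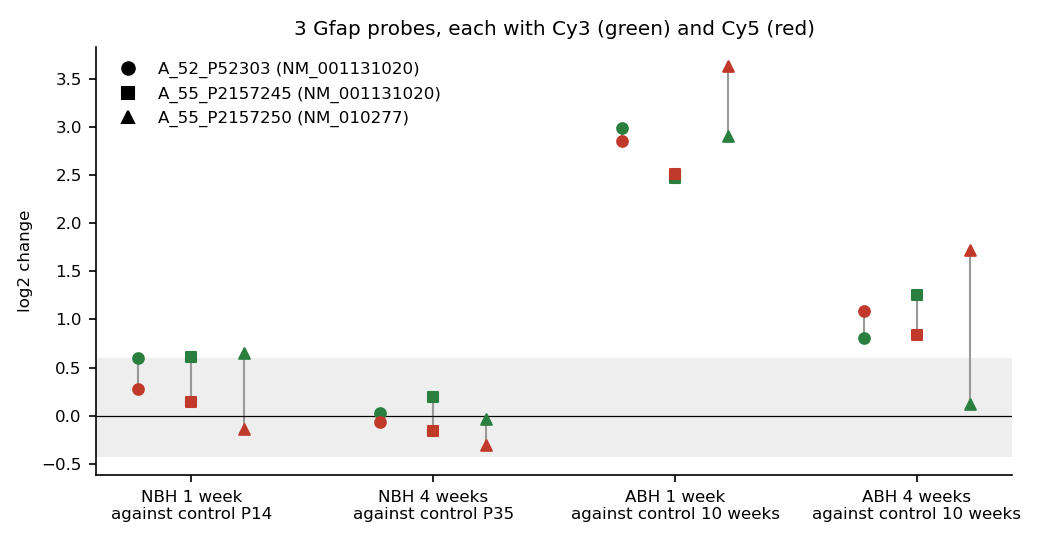
Log2 change of the 3 *Gfap* probes (marker shapes) in the 4 comparisons, with Cy3 in green and Cy5 in red and the range inside the fold limits shaded. All 3 probes are above the limit with both dyes in ABH 1 week, and the probe for NM_010277 has its dyes far apart in ABH 4 weeks (0.12 and 1.72).

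*Vim* (NM_011701) encodes vimentin, a filament protein of immature and reactive astrocytes and of cells of mesenchymal origin. Its level in the controls was 2.61 ± 0.05 at P7, 2.08 ± 0.03 at P14, 1.79 ± 0.0046 at P35 and 1.80 ± 0.15 at 10 weeks. The NBH pools gave 2.42 ± 0.19 at 1 week and 1.89 ± 0.14 at 4 weeks, and the ABH pools 4.22 ± 0.14 and 2.17 ± 0.04. The pool of ABH 1 week stood above all others with both dyes, followed by control P7. *Vim* was 5.33-fold higher in ABH 1 week (2.62 and 2.20), at rank 43 of 16320. The changes in NBH 1 week (0.22 and 0.45) and ABH 4 weeks (0.51 and 0.23) were above 0 with both dyes and within the limits.

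*Nes* (NM_016701) encodes nestin, a filament protein of neural progenitors that can reappear in reactive astrocytes. Its levels covered a narrow range, from 1.02 ± 0.02 in control P7 and 0.99 ± 0.04 in control P14 to 0.67 ± 0.05 in control P35 and 0.72 ± 0.01 in the 10 weeks control. The surgery pools gave 0.93 ± 0.15 and 0.82 ± 0.04 in NBH 1 week and 4 weeks, and 0.72 ± 0.03 and 0.54 ± 0.12 in ABH 1 week and 4 weeks. In ABH 1 week *Nes* changed by −0.03 (Cy3) and 0.02 (Cy5), and its sign depends on the scaling (0.28 with median scaling). The 3 genes of this class therefore did not move together in ABH 1 week, where *Gfap* and *Vim* were called and *Nes* was not.

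Of the secreted proteins, *Serpina3n* (NM_009252), an inhibitor of serine proteases, increased along the control ages. Its level was −2.72 ± 0.01 at P7, −2.23 ± 0.13 at P14, −1.64 ± 0.03 at P35 and −1.19 ± 0.03 at 10 weeks, which is 2.87-fold from the first to the last age. After the neonatal surgery it was −1.79 ± 0.43 at 1 week and −1.51 ± 0.05 at 4 weeks, and after the adult surgery it was 1.29 ± 0.03 and −1.29 ± 0.23. The pool of ABH 1 week was the single one above 0, and ABH 4 weeks and the 10 weeks control overlapped. *Serpina3n* was 5.60-fold higher in ABH 1 week (2.44 and 2.53), at rank 38 of 16320. The dyes were far apart in NBH 1 week, with 0.83 for Cy3 and 0.04 for Cy5. The change in NBH 4 weeks was 0.13, or −0.32 against the 10 weeks control.

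*Lcn2* (NM_008491) encodes lipocalin 2, an acute phase protein that binds bacterial iron carriers. It was the 1 gene of the 10 called higher after both the neonatal and the adult surgery. Its control levels were −1.58 ± 0.07 at P7, −1.08 ± 0.08 at P14, −1.07 ± 0.02 at P35 and −0.76 ± 0.06 at 10 weeks. It was −0.12 ± 0.26 in NBH 1 week and −0.83 ± 0.02 in NBH 4 weeks, and 0.02 ± 0.10 in ABH 1 week and −1.05 ± 0.09 in ABH 4 weeks. The pools of NBH 1 week and ABH 1 week were the highest with both dyes, and these 2 did not differ beyond the spread of the dyes. *Lcn2* was 1.94-fold higher in NBH 1 week (1.20 and 0.72), at rank 47 of 15469, and 1.71-fold higher in ABH 1 week (0.66 and 0.89), at rank 593 of 16320. At 4 weeks the changes were 0.22 and 0.27 in NBH (mean −0.07 against the 10 weeks control) and −0.27 and −0.31 in ABH, within the limits.

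*Osmr* (NM_011019) encodes the oncostatin M receptor, which pairs with gp130. Its level was −1.02 ± 0.13, −0.78 ± 0.09, −1.28 ± 0.22 and −1.29 ± 0.10 in the controls from P7 to 10 weeks. The NBH pools gave −0.67 ± 0.16 at 1 week and −1.23 ± 0.23 at 4 weeks, and the ABH pools 0.04 ± 0.06 and −0.98 ± 0.22. The pool of ABH 1 week was the highest with both dyes, by 0.71 over NBH 1 week, which did not differ from control P14 beyond the spread of the dyes. *Osmr* was 2.51-fold higher in ABH 1 week (1.44 and 1.22), at rank 252 of 16320. Its changes in the other comparisons, 0.11 in NBH 1 week, 0.05 in NBH 4 weeks (0.06 against the 10 weeks control) and 0.31 in ABH 4 weeks, were within the limits.

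*Cd44* (NM_009851), the receptor for hyaluronan and osteopontin, had its highest levels in different pools. The controls gave −0.34 ± 0.11 at P7, −0.10 ± 0.14 at P14, −0.56 ± 0.14 at P35 and −0.60 ± 0.03 at 10 weeks. Its level was −0.46 ± 0.09 in NBH 1 week and 0.06 ± 0.18 in NBH 4 weeks, and 0.0019 ± 0.05 in ABH 1 week and −0.46 ± 0.25 in ABH 4 weeks. The highest pools, NBH 4 weeks and ABH 1 week, did not differ beyond the spread of the dyes. In NBH 4 weeks *Cd44* was 1.53-fold higher (0.59 and 0.64), just past the limit, at rank 71 of 15873, and against the 10 weeks control its mean change was 0.66 but one dye missed the limit. In ABH 1 week it was 1.52-fold higher on average (0.55 and 0.65) and missed the limit with Cy3. The change in NBH 1 week was −0.33 and −0.39, short of the lower limit. Of the other 3 *Cd44* probes, 2 were not well above background in any comparison. The third was dim in each control and passed the limit with both dyes in no comparison. As means it gave at least 1.52-fold in NBH 1 week and at least 2.13-fold in ABH 1 week. In NBH 4 weeks, where the brightest probe was called, it gave at least 1.15-fold (0.41 with Cy3 and 0.0004 with Cy5), and in ABH 4 weeks at least 1.23-fold.

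Of the other membrane proteins, *S1pr3* was not called with the 75th percentile scaling, and *Steap4* was too dim to be compared. *S1pr3* (NM_010101), a receptor for sphingosine 1-phosphate, ranged from −0.49 ± 0.23 in control P7 to 0.13 ± 0.02 in ABH 1 week, and the remaining 6 pools lay between −0.33 and −0.15. Its change in ABH 1 week was 0.34 and 0.39, alike with both dyes and within the limits, but with median scaling it was 0.65 and was called higher. *Steap4* (NM_054098), a metalloreductase of the cell membrane, was well above background on 1 array alone, Cy3 of NBH 1 week, with an intensity of 182 where the Cy5 array gave 111. It was therefore compared in none of the 4 comparisons, and its intensity on the other 14 arrays was 82 to 118.

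*Stat3* (NM_213659), the transcription factor downstream of gp130, was highest in ABH 1 week and lowest in control P7. Its level in the controls was 1.75 ± 0.08 at P7, 1.87 ± 0.07 at P14, 1.99 ± 0.12 at P35 and 1.93 ± 0.06 at 10 weeks. After the neonatal surgery it was 1.99 ± 0.06 at 1 week and 1.99 ± 0.14 at 4 weeks, and after the adult surgery it was 2.29 ± 0.06 and 2.15 ± 0.14. The changes in ABH 1 week were 0.36 and 0.37, a mean of 1.29-fold, within the limits. A second, dimmer probe (NM_011486) changed there by 0.18. With median scaling the mean change of *Stat3* in ABH 1 week was 0.65, past the upper limit, but it was not called since the dyes did not both pass.

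**Figure D3:**
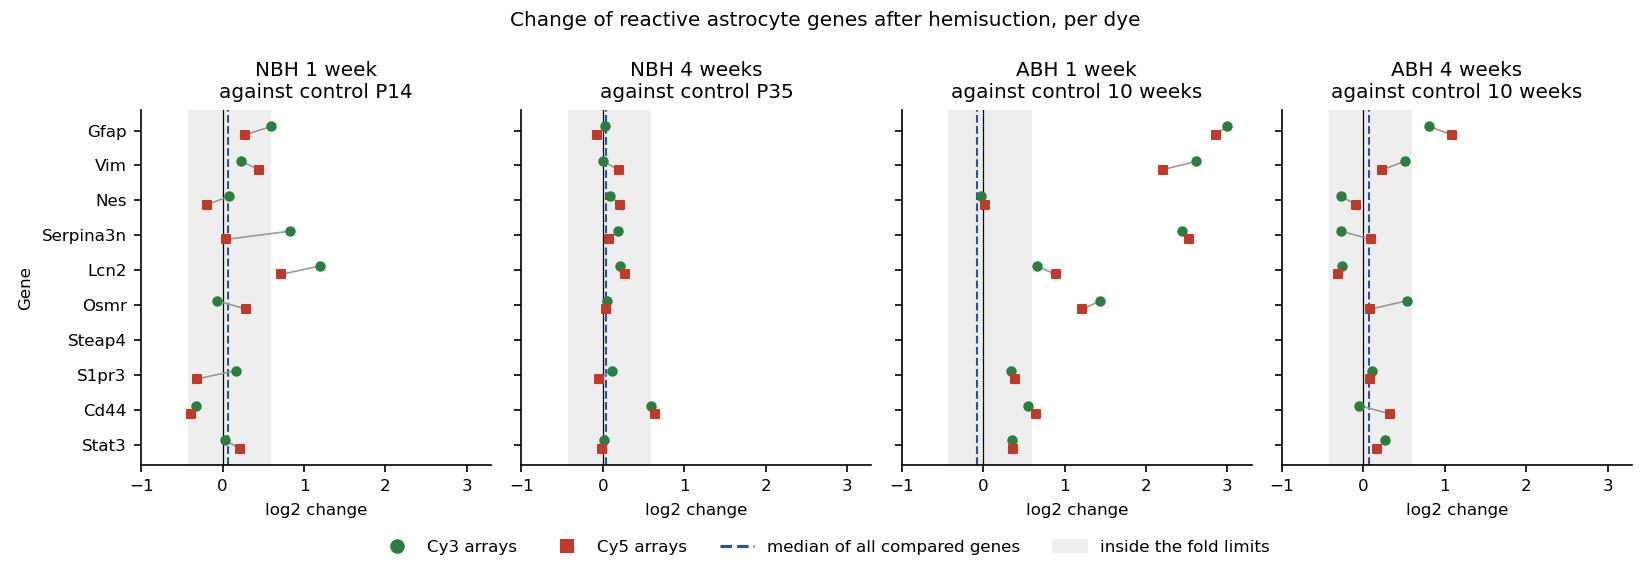
Log2 change of the 9 compared genes in the 4 comparisons. Circles are Cy3 and squares Cy5, the shaded range lies inside the fold limits, and the dashed line is the median of all compared genes. In ABH 1 week *Gfap*, *Vim*, *Serpina3n*, *Lcn2* and *Osmr* lie beyond the upper limit with both dyes, and in ABH 4 weeks *Gfap* alone does.

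Between 1 and 4 weeks after the adult surgery the same 5 genes were called lower and no gene of the 10 higher, where 4.92% of all 16189 compared genes were called lower and 3.92% higher. The ABH 1 week pool, in which these 5 genes had been called higher, enters this step too, so the 2 results are not independent. From ABH 1 week to ABH 4 weeks *Serpina3n* fell by 2.58 ± 0.20, *Vim* by 2.04 ± 0.10, *Gfap* by 1.98 ± 0.29, *Lcn2* by 1.06 ± 0.19 and *Osmr* by 1.02 ± 0.16 on the log2 scale. Of these, *Gfap* was still 1.93-fold above the 10 weeks control, and the other 4 were within the limits. Between NBH 1 week and NBH 4 weeks, *Vim* (−0.52 ± 0.05) and *Lcn2* (−0.71 ± 0.28) were called lower, against 6.58% of all genes lower and 1.73% higher. In the controls of the same ages, P14 and P35, *Vim* differed by −0.28 ± 0.02, within the limits, and *Lcn2* by 0.0033 ± 0.10. Over the control ages from P7 to 10 weeks, *Serpina3n* (1.52 ± 0.02) and *Lcn2* (0.82 ± 0.13) were called higher and *Vim* (−0.81 ± 0.11) lower, where calls were frequent over all genes too, at 15.8% higher and 21.0% lower. The ABH pools were 11 and 15 weeks old against a control of 10 weeks, and age and surgery cannot be told apart there.

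Other genes of the reactive state were taken from lists. Of 5 other genes induced in reactive astrocytes of any kind, 3 were called higher in ABH 1 week (median change 0.64), namely the chemokine *Cxcl10* (3.93 ± 0.12, 15.2-fold), the metalloproteinase inhibitor *Timp1* (2.67 ± 0.06, 6.36-fold) and *Aspg* (0.64 ± 0.01). *Cxcl10* was also at least 2.74-fold higher in NBH 1 week, where the control was not well above background. Of the 10 compared genes of the A1 type, described after inflammation, 6 were called higher in ABH 1 week (median 0.90), among them the proteasome subunit *Psmb8* (1.62 ± 0.07), the class I histocompatibility gene *H2-D1* (1.55 ± 0.02), the complement inhibitor *Serping1* (1.17 ± 0.09) and the GTPase *Gbp2* (1.16 ± 0.05). Of the 11 compared genes of the A2 type, described after ischemia, 4 were called higher (median 0.48), namely *Emp1* (2.73 ± 0.09), *Cd109* (at least 2.83-fold), *Tgm1* (at least 1.94-fold) and the lipopolysaccharide receptor *Cd14* (0.83 ± 0.03). No gene of the A1 and A2 lists was called in the other 3 comparisons, where their medians lay between −0.0038 and 0.11. Many of these genes are also expressed by microglia and macrophages.

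In the gp130 and STAT3 pathway, 3 of 17 compared genes were called higher in ABH 1 week (median 0.13) and none in the other comparisons. These were *Bcl3* (1.65 ± 0.05), the feedback inhibitor *Socs3* (1.00 ± 0.10, 2.00-fold) and the cytokine *Cntf* (0.72 ± 0.03). The shared chain gp130 (*Il6st*) changed by 0.26 ± 0.05 and the receptor *Lifr* by −0.08 ± 0.12 in ABH 1 week. The cytokine genes *Il6* and *Lif* and the inhibitor *Pias3* were not well above background in the pools compared.

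General astrocyte markers, such as the water channel *Aqp4* and the glutamate transporters *Slc1a2* and *Slc1a3*, were well expressed in all pools, and 0 of 17 were called in any comparison. Of these, 14 were saturated on no array, and in ABH 1 week all 14 had a change above 0, from 0.18 to 0.56 with a median of 0.30. The summed level of the 14 was 176 to 177 times the array's 75th percentile in ABH 1 week, 168 to 177 in ABH 4 weeks and 143 to 145 in the 10 weeks control. Such a sum weighs bright probes most, and here and for the following lists it leaves out saturated genes and is compared between pools only. The summed level of the 10 reactive astrocyte genes was 47.5 to 50.5 in ABH 1 week, 17.6 to 18.2 in ABH 4 weeks and 14.0 to 14.4 in the 10 weeks control. In the NBH pools it was 18.0 (1 week) against 15.2 to 15.5 in control P14, and 15.4 (4 weeks) against 14.3 to 14.6 in control P35.

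Markers of other cells moved with the 5 genes in ABH 1 week. Of 9 microglia markers, 6 were called higher (summed level 105 to 106, against 47.2 to 48.1 in the control), led by *C1qa* (2.11 ± 0.02), *Trem2* (2.04 ± 0.14) and *Aif1* (1.40 ± 0.04). Of 7 compared macrophage markers, 4 were called higher (11.1 to 11.2 against 1.22 to 1.45), namely *Lyz2* (37.7-fold), *Ms4a7* (11.5-fold), *F13a1* (5.47-fold) and *Msr1* (at least 2.52-fold), and *Cd163* was not well above background in either pool. Of 8 meninges markers, 4 were called higher (55.4 to 56.0 against 10.6 to 10.7), with *Col1a1* at 24.2-fold, *Col1a2* at 10.9-fold, *Lum* at 5.41-fold and *Dcn* at 2.44-fold. The remaining meninges markers, *Igf2*, *Slc6a13*, *Aldh1a2* and *Crabp2*, had changes above 0 and were not called. All 5 proliferation markers were called higher (3.13 to 3.16 against 0.894 to 0.966), among them *Mki67* (4.17-fold) and *Cdk1* (at least 3.92-fold). Of 5 ependyma markers, *Rarres2*, *Foxj1* and *Ccdc153* were called higher by 0.61 to 0.78 (4.50 to 4.54 against 2.97 to 2.99). The progenitor gene *Fabp7*, also an astrocyte gene, was 2.87-fold higher while *Eomes* was at least 1.94-fold lower (7 genes, the others without *Fabp7* at 8.59 to 8.60 against 9.61 to 10.1). No marker of oligodendrocytes (7 genes, 6 in the sum, 71.0 to 71.6 against 65.9 to 66.2), neurons (8 genes, 4 in the sum, 42.7 to 47.2 against 46.2 to 47.9) or endothelial cells and pericytes (9 genes, 21.2 to 22.5 against 21.1 to 22.1) was called. The part of these cells in the levels of the reactive astrocyte genes was not tested.

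**Figure D4:**
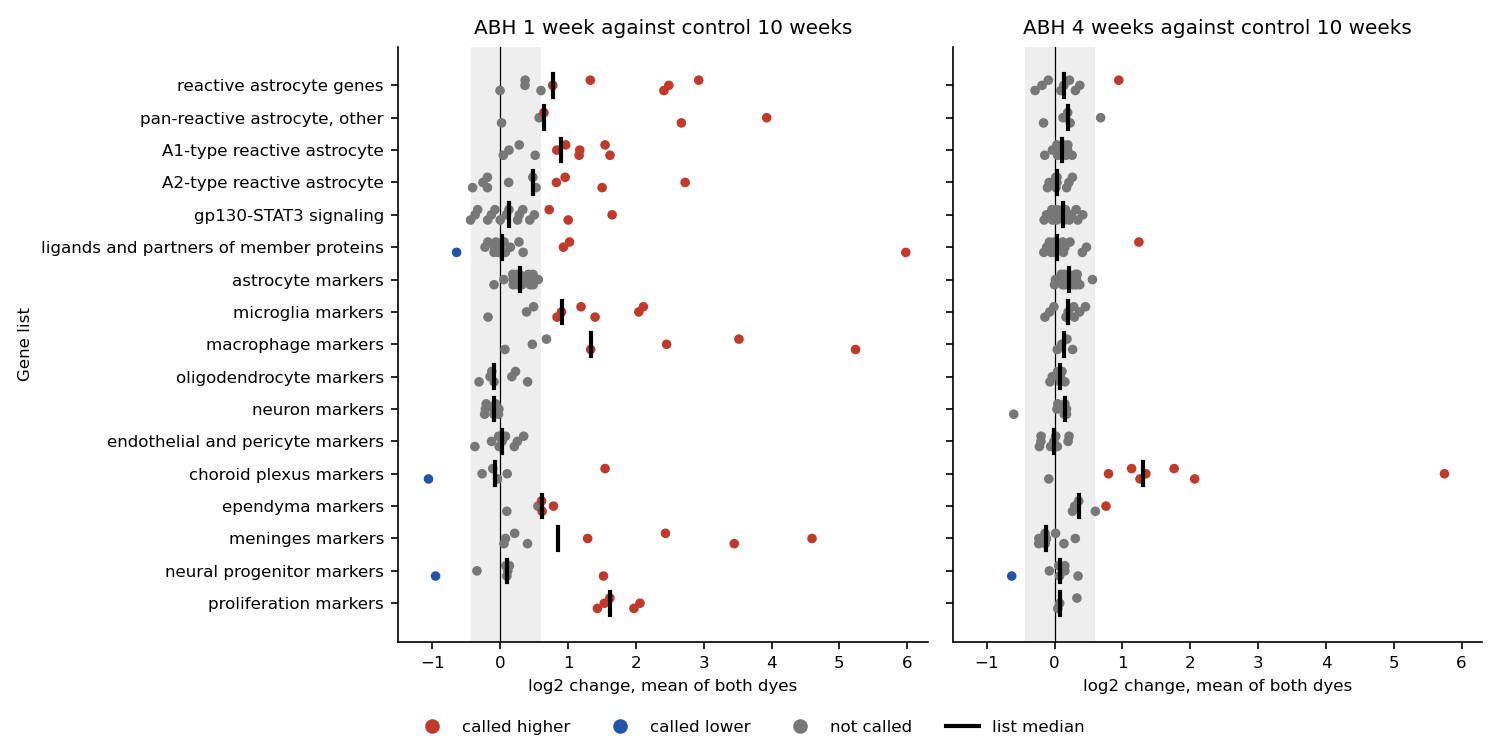
Log2 change (mean of both dyes) of each compared gene of 17 lists in ABH 1 week and ABH 4 weeks, with the list median as a bar and the range inside the fold limits shaded. Red points are called higher and blue points lower. The reactive lists and the microglia, macrophage, meninges and proliferation markers extend to the right in ABH 1 week. The point farthest right there is *Spp1* of the ligands and partners. The gp130 and STAT3, choroid plexus, ependyma and progenitor lists also hold genes called higher there. In ABH 4 weeks the choroid plexus markers extend to the right, with 7 of 8 called.

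In the other 3 comparisons none of the microglia, macrophage, meninges, proliferation, oligodendrocyte, neuron or endothelial markers was called. Where *Lcn2* was called, in NBH 1 week, 6 of 8 choroid plexus markers were higher (summed level 35.9 to 36.0 against 1.46 to 1.55), led by *Ttr* (92.4-fold) and *Folr1* (5.22-fold). In NBH 4 weeks, where *Cd44* was called, 3 of 8 were higher (16.7 to 17.2 against 1.60 to 1.79), with *Ttr* at 29.8-fold. In ABH 4 weeks, where *Gfap* was called, 7 of 8 were higher (27.4 to 28.7 against 1.58 to 1.64), with *Ttr* at 53.7-fold, together with the ependyma gene *Ccdc153* (1.69-fold), and *Eomes* was at least 1.55-fold lower. In ABH 1 week the choroid plexus sum was 1.65 to 1.66 against 1.58 to 1.64, with *Aqp1* called higher and *Slc4a5* lower. The part of choroid plexus tissue in the levels of *Lcn2*, *Cd44* and *Gfap* was not tested.

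The genes whose pattern over the 8 pools was most like that of *Gfap* were searched among 14468 genes well above background on all 16 arrays. Likeness was measured as the root mean square distance between the levels in the 8 pools (mean of dyes, each gene centred on its own mean), in log2 units. The 5 nearest genes outside the list were *Cd52* (0.16), *Bcl2a1d* (0.18), *Tlr2* (0.21), *Ccl5* (0.22) and *H2-Ab1* (0.25). They are known from leukocytes, as a surface glycoprotein, an inhibitor of apoptosis, a Toll-like receptor, a chemokine and a class II histocompatibility chain. *Bcl2a1d* has near-identical copies that its probe may not separate. All 5 were called higher in ABH 1 week, by 2.33 to 2.73, and none in ABH 4 weeks, where their changes were 0.40 to 0.57 and *Gfap* had 0.95. Among the reactive astrocyte genes, *Vim* was nearest to *Gfap* (0.35), followed by *Serpina3n* (0.51) and *Osmr* (0.58), and *Nes* was farthest of the measured ones (0.97). Since 1 pool carries most of the range of *Gfap* (2.93 over the 8 pools), these distances mainly compare the size of the change in ABH 1 week.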

How the data were processed

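The authors hybridized each RNA pool to Agilent mouse 8 × 60 K arrays, 1 with Cy3 and 1 with Cy5, and quantified the spots with Agilent Feature Extraction 11.0.1.1, per the labels. The deposited scanner tables hold spot intensities in arbitrary units, before and after background subtraction, and the deposited value table holds the processed intensities without scaling between arrays. The file headers name the mm9 build.

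Spot medians of the dye used were background-corrected with normexp (offset 50) in limma 3.58.1 under R 4.3.3. Spots marked as outliers and control spots were left out, repeated spots averaged, and log2 values taken relative to the 75th percentile of the array. Later steps ran in Python 3.11.15 (numpy 2.4.6, pandas 2.3.3). Probes were named by RefSeq accession from a GRCm38.p6 table used for names alone, 26582 of 55681 probes matching. A comparison took a gene if either of its pools had it well above background with both dyes. A pool below this was set, per array, to the higher of its own signal and the lowest one counted as above background, and the fold is written "at least". The calls were tested on simulated data with planted changes larger than the limits and no other difference between pools. That test does not bear on changes near the limits or on having 1 pool per group. Precision is set by the signal over background and by 1 pool per group, and the samples allow no test.

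The 10 genes and the lists were chosen with earlier results of these data known. Named were all 10 genes, the called genes of each list (where more than 4, the 4 with the largest change, or fewer of them) and the 5 genes nearest to *Gfap*. Other list genes were named after their values were seen, and some list genes are not reported here. The alternatives were the processed signal, the value table, median and quantile scaling, offset 0, no background filter or one on all 4 arrays, other fold limits, another control pool, the mean of probes, each dye alone and 2 settings chosen after seeing the data.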

Additional observations from a re-analysis of the deposited data

Results flagged for a closer look

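The change of *Cd44* had opposite directions at the 2 times after the neonatal surgery with both dyes, at −0.33 and −0.39 in NBH 1 week and 0.59 and 0.64 in NBH 4 weeks. The difference between the 2 mean changes was −0.971, and it was not tested. Both the P14 and the P35 control enter this value. From control P14 to control P35, *Cd44* changed by −0.46 with Cy3 and −0.45 with Cy5, past the lower limit. From NBH 1 week to NBH 4 weeks it changed by 0.46 and 0.58, within the limits. The P35 control is also the pool in which *Xist* passed the background limit. The direction in NBH 1 week turned with the mean of probes (0.12). There another *Cd44* probe, whose control was not well above background, gave at least 0.93 and 0.27.

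The change of *Lcn2* had opposite directions at the 2 times after the adult surgery with both dyes, at 0.66 and 0.89 in ABH 1 week and −0.27 and −0.31 in ABH 4 weeks. The difference of 1.063 was not tested. It compares the 2 ABH pools, since both changes have the same control. The change in ABH 4 weeks was 0.03 against the P35 control, so its direction there depends on the control. The P35 control was younger than the ABH pools, and *Lcn2* was 0.32 higher in the 10 weeks control than in it. It is also the pool in which *Xist* passed the background limit.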

How the results depend on the processing

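Each change was computed again with 15 alternatives, 2 of them chosen after seeing the data (the 75th percentile over probes, and changes centred on the median of all genes), and no called gene changed its direction. *Gfap*, *Vim*, *Serpina3n* and *Osmr* were called higher in ABH 1 week under each of the 15, and *Lcn2* under all but the 2-fold limits. Their log2 changes there ranged over 2.71 to 3.21, 2.20 to 2.70, 2.44 to 2.94, 1.22 to 1.61 and 0.66 to 1.09. *Cd44* in ABH 1 week (0.55 to 0.88) was also called under 6 alternatives, and *S1pr3* with median scaling (0.65).

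The single calls of the other comparisons were less stable. In NBH 1 week the number called higher was 0 with the unscaled value table, where *Lcn2* was at 0.835 (0.72 to 1.46 over all alternatives), and with the 2-fold limits, 2 without the background filter (*Lcn2* and *Steap4*) and with control P7 in place of P14 (*Lcn2* and *Serpina3n*), and 1 to 4 with a single dye (Cy3 alone adding *Gfap*, *Serpina3n* and *Steap4*), while 1 gene, *Cd44*, was called lower with the unscaled table. In NBH 4 weeks *Cd44* (0.41 to 0.66) was lost, leaving 0, with the unscaled table, median scaling, the 2-fold limits, the 10 weeks control, the mean of probes and the centred changes, and 2 genes were called without the background filter (*Cd44* and *Steap4*). In ABH 4 weeks the number was 0 with the 2-fold limits and with the P35 control, with *Gfap* at 0.73 to 1.08 over all alternatives. The P35 control used here is the younger pool in which *Xist* passed the background limit. The cause of these changes was not tested.

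Median scaling moved the median change of all genes in ABH 1 week from −0.07 to 0.21 and turned the split of all genes from 734 higher and 1034 lower to 1357 and 254, and quantile normalization gave 962 and 384. Over the 15 alternatives, the number of all genes called higher ranged over 14 to 1290 (NBH 1 week), 6 to 329 (NBH 4 weeks), 357 to 1357 (ABH 1 week) and 15 to 562 (ABH 4 weeks), and the number called lower over 3 to 1483, 15 to 1266, 22 to 2561 and 1 to 950. The unscaled table gave medians of −0.12, −0.20, 0.02 and −0.10 in the 4 comparisons in place of 0.06, 0.04, −0.07 and 0.07, so that changes near 0, such as that of *Nes*, have no fixed sign. No paired analysis was possible because each group is 1 pool, which leaves no biological replicates to pair, and each change was already taken within 1 dye and chip. A gene near background, such as *Steap4*, has no usable level at this signal.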

Other observations

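The ligands and partners of the proteins encoded by the reactive astrocyte genes were listed as well, and 3 of 16 compared genes were called higher and 1 lower in ABH 1 week, with a list median of 0.03. Over all 16320 genes compared there, 4.5% were called higher and 6.34% lower, so the single lower call is near the share of all genes. The largest change was that of *Spp1*, which encodes osteopontin, a ligand of CD44 made by macrophages and microglia among others. Its level was 3.73 in ABH 1 week and −2.25 in the 10 weeks control, a 63.0-fold difference (6.03 with Cy3 and 5.93 with Cy5). In ABH 4 weeks its change was −0.02 ± 0.03, and in NBH 1 week it was at least 1.97-fold higher, from a control not well above background. The hyaluronan synthases, which make the other ligand of CD44, gave *Has3* called lower in ABH 1 week (−0.64 ± 0.31) and *Has1* called lower in NBH 4 weeks (−0.45 ± 0.01). In NBH 4 weeks 0.762% of all 15873 compared genes were called lower.

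For the sphingosine 1-phosphate system of *S1pr3*, the receptor *S1pr2* (1.02 ± 0.20) and the lyase *Sgpl1* (0.93 ± 0.04) were called higher in ABH 1 week, and *S1pr1* changed by 0.15 ± 0.22. The lipocalin 2 receptor *Slc22a17* was saturated on all 4 arrays of each comparison, which gives no change, and the other known receptor, *Lrp2*, was not well above background in the pools compared. The filament partners synemin (*Synm*, −0.06 ± 0.22) and plectin (*Plec*, −0.18 ± 0.11) were within the limits in ABH 1 week. *Steap1*, a relative of *Steap4*, was called at least 2.37-fold higher in ABH 4 weeks, from a control not well above background.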
